A study of Nannochloropsis oceanica with 6 samples.

Results

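Dark-adapted cells of the marine alga Nannochloropsis oceanica, strain CCMP1779, that received no light pulse are described. They were chosen by their label and make up 2 of the 6 libraries of the series, dark replicate 1 and dark replicate 2. The cultures had grown at 22 °C, shaken at 100 rpm, in 12 h of light at 30 µmol s-1 m-2 and 12 h of dark. At zeitgeber time 12 they were moved to darkness for 36 h, and they then stood for another 15 min in the dark, the interval that followed the pulse in the other groups. Dark-coloured tubes kept light from the cells at harvest. Polyadenylated RNA was made into strand-specific Illumina libraries. The labels number the replicates without saying that they were separate cultures, so the spread between them may be technical.

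Nannochloropsis is a small coccoid stramenopile alga with a plastid of secondary origin, known for storing oil and for its polyunsaturated fatty acids. Its light harvesting antenna binds chlorophyll a and carotenoids, mainly violaxanthin, and its blue light receptors include the aureochromes, in which a bZIP domain that binds DNA is joined to a LOV domain that senses light. In prolonged darkness an alga of this kind obtains no energy from photosynthesis and lives on stored carbon and on the turnover of its own proteins and lipids. Chaperones fold new and damaged proteins, and the ubiquitin-proteasome system, proteases and autophagy break proteins down.

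The deposited table gave a level for 10635 gene models in both dark libraries, in TPM, a unit that scales fragments to transcript length and makes every library sum to 1e+06. Levels are compared below only on this per-length scale, each pair of values is for dark replicate 1 and dark replicate 2 in that order, and the level of a list of models is the median of their means over both libraries. The share of a list is its part of the TPM total. Over all models the median level was 21.6 TPM, 19.1% of models were at 100 TPM or more and 13.2% were below 1 TPM. The function lists hold only models with a description, whose median was 26.6 TPM. The models of all function lists together had a median of 36.2 TPM. A TPM is a share of the RNA of the culture, so a low level in every cell and a high level in few cells cannot be told apart. Overlapping models make up 38.0% of the models, 4038 in number, and no source used here says how fragments were divided between them, so overlap is stated for each model named. Of the genes known to mark Nannochloropsis, the lipid droplet surface protein (1 model), the 26 light harvesting models, 3 aureochromes and 4 violaxanthin de-epoxidase models were all at 1 TPM or more. So were 6 of 7 models whose description names delta-6 desaturase. That description names delta-6 fatty acid and delta-8 sphingolipid desaturases together, and only 606752 has delta-6 desaturase as its product name. No description held the words cellulose synthase or delta-5 desaturase, which does not show that such genes are missing.

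The dark transcriptome was concentrated in few models. The most abundant model held 0.844% and 0.830% of the total, the top 10 held 6.14% and 6.11%, the top 100 held 25.9% and 25.8%, and the top 1000 held 65.7% and 65.5%. Models holding 50% of each total numbered 460 in replicate 1 and 466 in replicate 2, and those holding 90% numbered 3382 and 3394. The 142 models at 1000 TPM or more held 30.7% and 30.5% of the total, and the 1892 models from 100 to 1000 TPM held 49.8% in either library. The 4828 models from 10 to 100 TPM, the most numerous range, held 18.4% and 18.5%. The 2367 models from 1 to 10 TPM held 1.12% and 1.11%. Both libraries ranked the same models first, sharing 9 of their own top 10, 29 of their top 30 and 97 of their top 100.

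**Figure D1:**
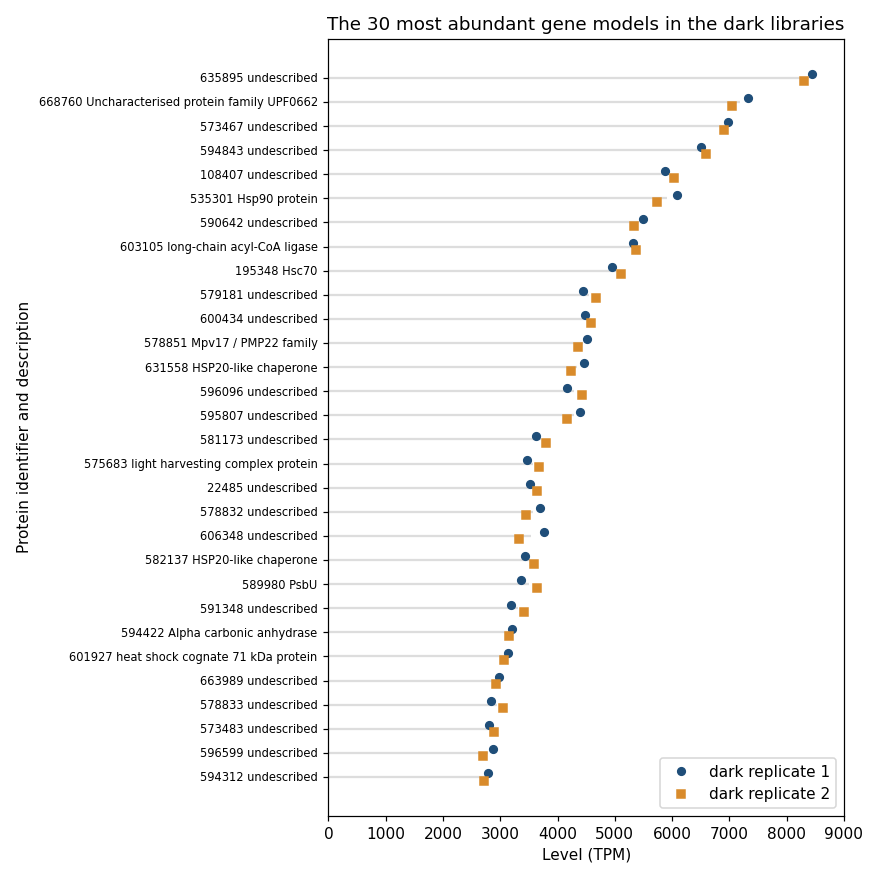
Level in TPM (x axis) of the 30 models with the highest mean over the dark libraries (y axis, protein identifier and description), with circles for dark replicate 1, squares for dark replicate 2 and grey lines to the mean. The means run from 2755 to 8370 TPM, the symbols of a model lie close together, and 19 of the 30 models carry no description.

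Genes without any functional description led the list. The most abundant model of all was 635895 (scaffold 1, 1315938 to 1317048), undescribed, at 8436 and 8304 TPM. The next was 668760 (scaffold 4, 605555 to 607788), a member of the uncharacterised family UPF0662, at 7329 and 7039 TPM. Undescribed models 573467 (overlapping another model), 594843 and 108407 (overlapping) followed at 6981 and 6906, 6509 and 6584 and 5868 and 6029 TPM. In all, 19 of the 30 most abundant models were undescribed, as were 45 of the top 100 and 296 of the top 1000. Of all models 33.2% were undescribed, so the top 1000 lay below that share. The 30 models lay on 16 scaffolds, 10 of them overlapped another model, and their values differed between the libraries by at most 0.18 on the log2 scale.

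Undescribed models were lower than described models as a whole but frequent among the very highest. They numbered 3530 (33.2% of models) and held 33.7% and 33.5% of the total. Their median was 12.4 TPM, against 26.6 TPM for the 7105 described models, 20.5% of them were below 1 TPM, against 9.61% of described models, and 15.9% were at 100 TPM or more, against 20.7%. By level, undescribed models made up 40.1% of those at 1000 TPM or more, 26.6% of those from 100 to 1000 TPM, 27.5% from 10 to 100 TPM and 38.9% from 1 to 10 TPM. Short models were among the abundant ones, with 7 of the top 100 spanning under 500 bp, against 3.45% of all models. The shortest of the top 30 was undescribed 600434, of 355 bp on scaffold 22, at 4483 and 4586 TPM. Whether span bears on the level of such short models was not tested.

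Some of the most abundant models sat side by side. Among the top 100, 23 had a direct neighbour that was also in the top 100, and 9 of these 23 overlapped another model. On scaffold 4, undescribed 578832 (624145 to 624847, plus strand) and 578833 (624877 to 625736, minus strand) stood tail to tail at 3689 and 3447 TPM and 2836 and 3047 TPM. The same scaffold carried the UPF0662 model 668760 and the Mpv17 family model 578851 on either side of this pair, so that 4 of the 30 most abundant models lay between positions 605555 and 640467. Coordinates are those of the deposited table, whose models carry the name Nanoce1779_2.

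Molecular chaperones were frequent among the most abundant described models. The lists of Hsp90, Hsp70, small heat shock proteins, Hsp100 and Clp proteins, J-domain proteins and chaperonins held 97 models and 4.46% and 4.51% of the total, with a median of 74.2 TPM against 21.6 TPM over all models. Of the 142 models at 1000 TPM or more, 11 were on these lists. The Hsp100 and Clp list also counts proteolytic subunits of the Clp protease, which are peptidases. Models with that description numbered 5 and held 0.136% of the total in either library. Among models that overlap no other, the share of the chaperone lists was 2.80%, that of Hsp70 0.429% and that of heat shock factors 0.0542%, against 4.49%, 1.10% and 0.275% over all models.

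Small heat shock proteins (Hsp20), which hold unfolding proteins in a soluble state, had the highest median of the 55 lists, 1850 TPM over 6 models, and held 1.15% and 1.22% of the total. Model 631558 (scaffold 15, 638687 to 640167) was at 4457 and 4235 TPM and 582137 (scaffold 6, overlapping) at 3438 and 3587 TPM. Model 631559, the next gene downstream of 631558 on the same strand of scaffold 15, was at 2087 and 2956 TPM, so replicate 2 was the higher by 0.50 on the log2 scale. This was the largest difference between the libraries among the models at 1000 TPM or more. Models 631558 and 631559 have the same description and spans of 1481 and 1479 bp. How reads shared by similar models were treated is not stated, so their separate levels are uncertain. The other 3 models covered a wide range, with 579259 (overlapping) at 1205 and 1151 TPM, 607932 (overlapping) at 299 and 295 TPM and 640395 listed at 0 in replicate 1 and at 0.254 TPM in replicate 2. Model 640395 lies directly upstream of 631558 in the same orientation, so that the lowest and the highest Hsp20 model were neighbours. The next model before it, 595017 on the opposite strand, is an HSP104-like chaperone at 1446 and 1470.4 TPM, which makes 4 chaperone models in a row.

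Among the larger ATP-dependent chaperones, 1 or a few models carried each family. The Hsp90 model 535301 (scaffold 1, 276153 to 280462), a chaperone of signalling proteins, was at 6078 and 5743 TPM and took 82.2% of the Hsp90 total. Hsp90 models 540045 and 635945 were at 821 and 761 TPM and 451 and 459 TPM, and the model annotated to the endoplasmic reticulum, 630170, at 34.1 and 33.5 TPM. All 4 Hsp90 models overlapped another model. Of 13 Hsp70 models, general folding chaperones, 6 were at 100 TPM or more and the median was 45.8 TPM. The highest, 195348 (scaffold 24, 201954 to 205614) at 4943 and 5115 TPM and 601927 at 3135 and 3059 TPM, overlap each other on the same strand, so their levels are not independent. Model 574559, of the Hsp105/110 type and overlapping no other, was at 1535 and 1517 TPM and the DnaK-like 539299 at 537 and 522 TPM.

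Hsp100 and Clp proteins, which unfold or degrade aggregated proteins, had a median of 332 TPM over 13 models, 9 of them at 100 TPM or more. The HSP104-like 593457 (overlapping), a disaggregase in yeast, was at 2483 and 2416 TPM, above 595017 of the same family. A proteolytic subunit of the Clp protease, 590527, was at 485 and 479.9 TPM. J-domain proteins, the partners of Hsp70, had a median of 27.8 TPM over 42 models without a SANT domain, with 599701 highest of these at 671 and 638 TPM. A further 10 zuotin-type members of the DnaJ superfamily, which carry a SANT domain, were counted with the Myb and SANT list and had a median of 135 TPM. With them the J-domain list held 0.718% and 0.691% of the total, against 0.398% and 0.395% without, and its median was 57.0 TPM over 52 models, led by 525903. Chaperonins, the barrel-shaped folding machines, had a median of 74.2 TPM over 19 models. The organelle-type Cpn60 models 36428 and 542621 (overlapping) were at 1453 and 1403 TPM and 736 and 745 TPM. A model of 153 bp for the beta subunit of the cytosolic complex, 530544, was at 876 and 1076 TPM, higher in replicate 2.

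The transcription factors that control chaperone genes were also high. Of 6 heat shock factor (HSF) models 4 were at 100 TPM or more, and their median was 272 TPM. Model 595798 (scaffold 16, overlapping) was at 1752 and 1768 TPM, 533304 (overlapping) at 445 and 419 TPM, 657947 at 337 and 331 TPM and 296093 (overlapping) at 218 and 203 TPM. The lowest, 528557, was at 2.01 and 0.922 TPM, the value of replicate 1 being the higher. The undescribed model 595807, among the 30 most abundant at 4396 and 4170.4 TPM, lies directly downstream of 595798 on scaffold 16, and the model that overlaps 595798 upstream is elongation factor 1-alpha.

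**Figure D2:**
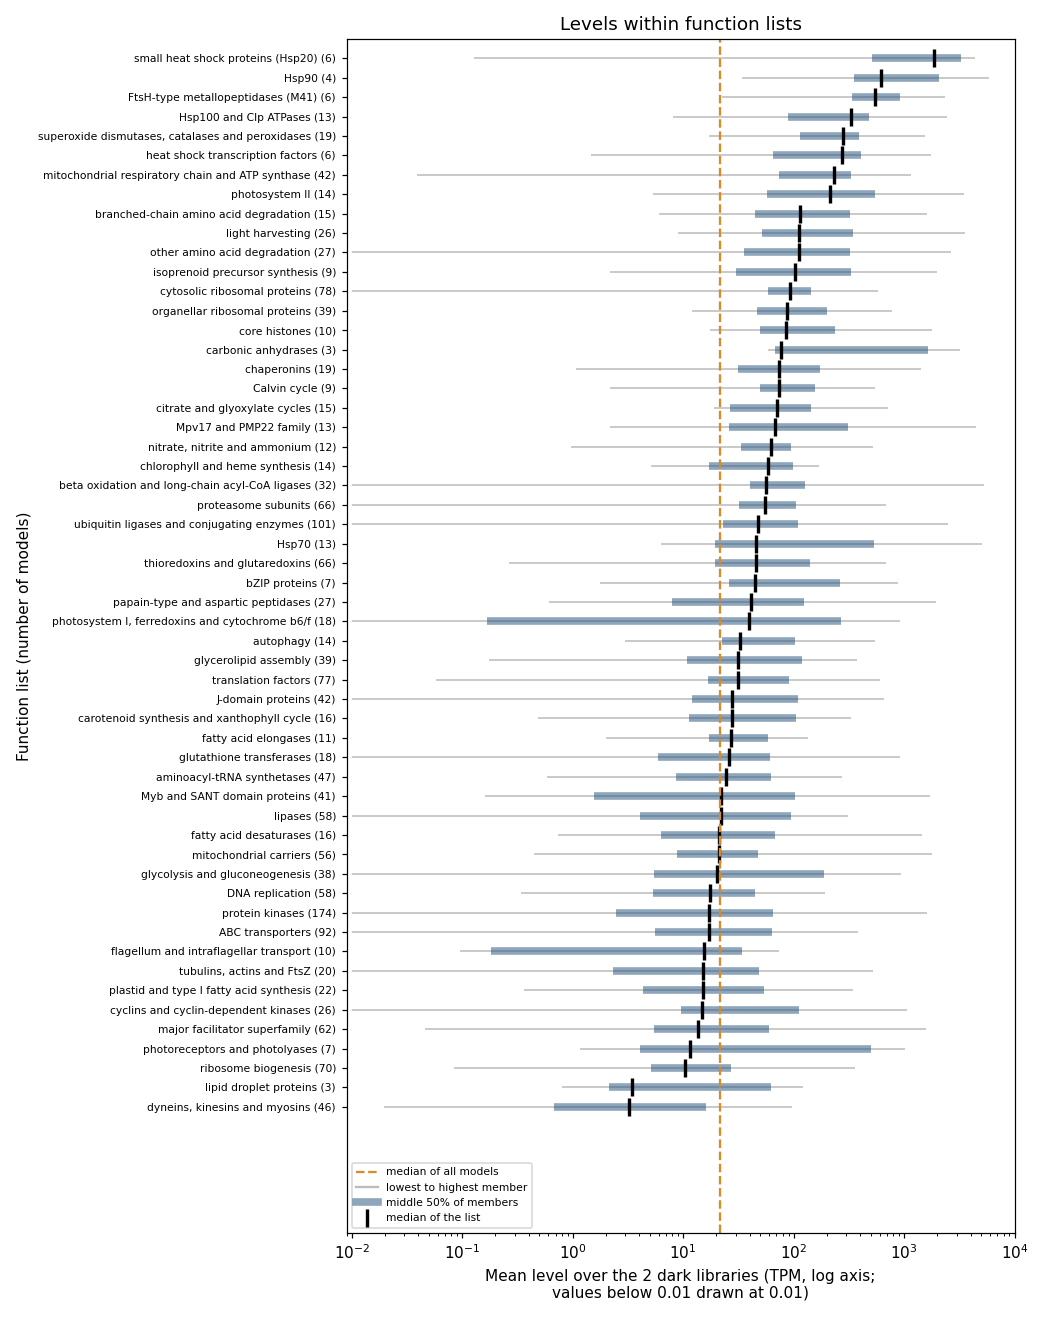
Mean level over the dark libraries in TPM (x axis, log scale) for the members of the 55 function lists (y axis, number of models in brackets, sorted by median). Black marks are medians, blue bars the middle 50% of members, grey lines the range (values below 0.01 TPM drawn at 0.01), and the dashed line the median of all models at 21.6 TPM; 40 of 55 lists have a median above it, with Hsp20 at the top and dyneins, kinesins and myosins at the bottom.

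The 5 lists of protein breakdown all had medians above the 21.6 TPM of all models. Of these lists, only autophagy was below the 36.2 TPM of all listed models together. Ubiquitin ligases and conjugating enzymes, which mark proteins for degradation, held 1.28% of the total in either library over 101 models, with a median of 48.0 TPM and 29 models at 100 TPM or more. The RING-type ligase 585827 stood out within that list at 2503 and 2509 TPM, followed by 398213, also RING-type, at 1126 and 1069.6 TPM. Proteasome subunits, the core and cap of the degrading complex, held 0.578% and 0.598% over 66 models, with a median of 55.0 TPM. A regulatory subunit with a PDZ domain, 596781, was at 657 and 703 TPM and a 20S subunit, 571660, at 345 and 351 TPM. The middle 50% of proteasome members lay between 32.1 and 105 TPM. An alpha subunit, 590777, was listed at 0 in both libraries and has a partner of the same description and near-equal span.

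FtsH-type metallopeptidases (family M41), which in plastids and mitochondria remove damaged membrane proteins such as those of photosystem II, had a median of 543 TPM, below only Hsp20 and Hsp90 among the 55 lists. Their 6 models held 0.469% and 0.480% of the total. Model 574568 was at 2265 and 2399 TPM, 615622 (overlapping) at 1002 and 1049 TPM and 581966 at 595 and 566 TPM, and 5 of the 6 were at 100 TPM or more. Papain-type and aspartic peptidases, digestive enzymes of the vacuole or lysosome in plants and animals, had a median of 41.6 TPM over 27 models. The papain-type 606351 (overlapping) was at 1850.4 and 2017 TPM and the aspartic peptidase 568814 at 1150.4 and 1126 TPM. Autophagy proteins, which deliver cell contents to the vacuole, had a median of 32.7 TPM over 14 models. The conjugating enzyme Atg3 (567238, overlapping) was at 538 and 546 TPM and the membrane protein Atg9 (555488) at 113 and 109.7 TPM.

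Transcripts for the photosynthetic apparatus were present in darkness, and some were among the most abundant. Light harvesting, photosystem II and the list of photosystem I, ferredoxins and cytochrome b6/f together held 58 models and 1.92% and 2.00% of the total, with a median of 109 TPM. The libraries are of polyadenylated RNA, so transcripts of photosynthesis or the Calvin cycle without a poly(A) tail would not be counted. The shares and medians are those of the listed models and not of the whole apparatus. Among models that overlap no other, the shares of the 3 lists were 0.564%, 0.363% and 0.168%, against 0.892%, 0.748% and 0.319% over all models. All 26 light harvesting proteins, the chlorophyll-binding antenna, were above 1 TPM and their median was 112 TPM. Antenna model 575683 (scaffold 2, 1460788 to 1462885, overlapping) was at 3474 and 3679.9 TPM and alone took 40.1% of the list. The next, 591694 at 1211 and 1229.7 TPM and 526692 at 504 and 537 TPM, were far below it, and the lowest, 599350, was at 9.23 and 8.70 TPM. Replicate 2 was the higher for 21 of the 26 models, with a median log2 ratio of 0.09, against 51.6% of all models at 1 TPM or more.

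Photosystem II, which splits water, had a median of 212 TPM over 14 models, 8 of them at 100 TPM or more. PsbU (589980, overlapping), an extrinsic subunit of the water-splitting side, was at 3363 and 3634 TPM and took 46.7% of the list. The thylakoid formation protein annotated as Psp29 (356280) was at 1429 and 1384 TPM, the manganese-stabilising PsbO (598585, overlapping) at 639 and 647 TPM and a PsbQ-like protein (575040, overlapping) at 612 and 633 TPM. A PsbP-type model, 606410, was at 5.29 and 5.49 TPM. The named models of this list thus covered a wide range of levels, and whether 606410 is a subunit of the water-splitting complex is not known from its description.

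The list of photosystem I, ferredoxins and cytochrome b6/f was split, with 7 of 18 models at 100 TPM or more and 7 below 1 TPM. Models with ferredoxin-type descriptions made up its top, 521780 (overlapping) at 875 and 962 TPM and 599613 (overlapping) at 579.7 and 580.2 TPM. By product name alone the list held 0.0360% of the total, against 0.319% by all descriptions. Most of its share thus rests on domain and KOG wording, which does not by itself place a model in photosynthesis. At its bottom stood 6 models annotated as the Rieske subunit of cytochrome b6/f, the complex that links the photosystems. All 6 lay within a stretch of 10 models on scaffold 7 (430875 to 447528), 3 of them were listed at 0 in both libraries, and the highest of the 6 had a mean of 0.264 TPM. Of the 3 at 0, 2 have the same span of 1997 bp, and 3 of the 6 overlap another model. How reads shared by similar models were treated is not stated, so the levels of these 6 are uncertain.

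Lists of pigment synthesis and the Calvin cycle had lower medians than light harvesting and photosystem II, but above the 21.6 TPM of all models. Chlorophyll and heme synthesis had a median of 58.9 TPM over 14 models, none of them below 1 TPM, with a magnesium chelatase subunit (595990) highest at 167 and 171 TPM. Magnesium chelatase makes the first step specific to chlorophyll. Carotenoid synthesis and the xanthophyll cycle had a median of 27.8 TPM over 16 models, next to the 26.6 TPM of described models. That median was below the 36.2 TPM of all listed models together. A 15-cis-phytoene desaturase (128587) was at 331 and 329.8 TPM, violaxanthin de-epoxidase models 582421 (overlapping) and 598216 at 190.1 and 175 TPM and 138 and 138 TPM, and the phytoene synthase-like 580874 (overlapping), the entry to the pathway, at 1.72 and 2.15 TPM. The de-epoxidase model 582421 (scaffold 6, 541291 to 544091, plus strand) overlaps the model of aureochrome 3 (544003 to 546376, minus strand) at their 3′ ends.

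The Calvin cycle, which fixes carbon dioxide, had a median of 74.0 TPM over 9 models, of which 6 overlap another model, and its share was 0.0295% among models that overlap no other, against 0.118% over all. Transketolase 582569 was at 536 and 558 TPM, sedoheptulose-bisphosphatase 671242 at 162 and 168 TPM and phosphoribulokinase 593848 at 150.0 and 165 TPM, all 3 overlapping. An alpha-type carbonic anhydrase (594422; scaffold 15, 211002 to 213295), which interconverts carbon dioxide and bicarbonate, was far above these at 3213 and 3151 TPM. It took 95.9% of its list of 3. The beta-type model 585615 was at 79.6 and 75.0 TPM. Isoprenoid precursor synthesis, which feeds carotenoids and the chlorophyll tail, had a median of 103 TPM over 9 models. Its entry enzyme in the plastid, 1-deoxy-D-xylulose-5-phosphate synthase (530268), was at 1962 and 1972 TPM and took 58.4% of the list.

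Enzymes of fatty acid activation and breakdown and of amino acid degradation included several of the more abundant models. Long-chain acyl-CoA ligases, which activate fatty acids, and beta oxidation, which shortens them, were listed together. Their 32 models held 0.839% and 0.847% of the total, with a median of 56.2 TPM. The acyl-CoA ligase 603105 (scaffold 26, 197979 to 200993), which overlaps no other model, was at 5315 and 5373 TPM and took 63.4% of the list. Its description does not say whether it serves breakdown or another use of fatty acids. An acyl-CoA dehydrogenase (579551, overlapping) was at 434 and 429 TPM and an enoyl-CoA hydratase-type protein (586599) at 317 and 339 TPM, both below it by an order of magnitude. Lipases had a median of 21.9 TPM over 58 models, and the highest, 546439, was at 302 and 324 TPM. Their median was next to the 21.6 TPM of all models and below the 26.6 TPM of described models.

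Degradation of branched-chain amino acids had a median of 113 TPM over 15 models, none overlapping and none below 1 TPM. A carboxyl transferase (611034) was at 1641 and 1584 TPM and took 38.6% of the list. Its description names methylcrotonyl-CoA carboxylase, an enzyme of leucine breakdown, together with acetyl-CoA carboxylase, so its pathway is not settled. The alpha subunit of methylcrotonyl-CoA carboxylase (560653) was at 359 and 329.9 TPM. A branched-chain aminotransferase (551337), the shared first step, was at 688 and 682 TPM. Other amino acid degradation had a like median of 111 TPM over 27 models. Saccharopine dehydrogenase 101331 (scaffold 16, 198435 to 202750), of the lysine pathway, was at 2649.5 and 2638 TPM. A biopterin-dependent aromatic amino acid hydroxylase (585185), which in animals starts phenylalanine breakdown, was at 823 and 752 TPM. Glutaryl-CoA dehydrogenase (593552), further down the lysine pathway, was at 477 and 461 TPM.

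Respiratory genes were high across most of their list. The mitochondrial respiratory chain and ATP synthase held 0.967% and 1.01% of the total over 42 models, with a median of 234 TPM and 27 models at 100 TPM or more. An MLRQ-type subunit of complex I (589488, overlapping) was highest at 1142 and 1192 TPM, and the top 4 took 29.5% of the list. The OSCP subunit of ATP synthase (587845) was at 722 and 711 TPM. In the citrate and glyoxylate cycles the median was 70.4 TPM over 15 models, none below 1 TPM. Isocitrate lyase (597162, overlapping), which with malate synthase lets cells turn fat-derived acetyl-CoA into sugar, was highest at 716 and 725 TPM. The malate synthase models 573810 (overlapping) and 574637 were at 136 and 138 TPM and 41.9 and 42.8 TPM. Citrate synthase models 588676 (overlapping) and 599276 were at 67.7 and 69.8 TPM and 25.1 and 28.7 TPM, and a cytoplasmic malate dehydrogenase (629435, overlapping) was lowest at 18.8 and 19.1 TPM.

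Glycolysis and gluconeogenesis had a median of 20.3 TPM over 38 models, with 13 at 100 TPM or more and 4 below 1 TPM. The 4 phosphoglycerate kinase models, for the step that makes the first ATP of glycolysis, show the range. Model 613606, called cytosolic-like, was at 955 and 926 TPM and 543791 at 3.30 and 3.32 TPM. Models 531032 and 534897 were listed at 0 in both libraries, lie on scaffolds 18 and 180 and have the same span of 1616 bp. Aldolases 592704 (overlapping) and 599234 were at 854 and 873 TPM and 674 and 697 TPM. Mitochondrial carriers, which pass metabolites through the inner membrane, had a median of 21.0 TPM over 56 models, and 1 of them, 594452, was at 1839.5 and 1764 TPM and took 39.2% of the list.

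Lists of enzymes that build lipids had medians from 15.1 to 31.6 TPM, around the 21.6 TPM of all models. These medians were below the 36.2 TPM of all listed models together. Plastid and type I fatty acid synthesis had a median of 15.1 TPM over 22 models, with an acyl carrier protein (605733) at 230.3 and 275 TPM and a ketoacyl synthase (606649), which extends the chain, at 155 and 161 TPM. Glycerolipid assembly had a median of 31.6 TPM over 39 models. An acyltransferase (592720) was at 369 and 375 TPM and the synthase of the plastid galactolipid MGDG (591534) at 229 and 223 TPM. Fatty acid elongases had a median of 27.0 TPM over 11 models, from 135 and 137 TPM for 572755 to 1.96 and 2.06 TPM for 622402 (overlapping).

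Desaturases, which put double bonds into fatty acids, held 0.354% and 0.338% of the total, and 4 of their 16 models took 93.1% of it. Among models that overlap no other they held 0.213%. Model 392284 (overlapping) was at 1492 and 1411 TPM and the type 2 desaturase 522533 at 1184 and 1137 TPM. Model 580470 (overlapping), whose description names delta-6 and delta-8 desaturases together, was at 555 and 532 TPM. The median of the list was 21.3 TPM, and the delta-6 desaturase model 606752 (overlapping) stood at 1.88 and 1.63 TPM. The lipid droplet surface protein (591558, overlapping), the structural protein of oil bodies in this genus, was at 122 and 120.1 TPM. Of the 2 caleosin models beside it on the list, both overlapping, 602807 was at 3.19 and 3.74 TPM and 602806 at 1.59 and 2.15e-05 TPM, where the library values lie far apart.

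Translation genes were of middle to high level and ribosomal proteins were shifted between the dark libraries. Cytosolic ribosomal proteins held 0.912% and 0.984% of the total over 78 models, with a median of 93.5 TPM. The middle 50% of them lay between 58.7 and 144 TPM, and the top 4 took 20.8% of the list. The L10e/L16 model 615607 was at 547 and 626 TPM, L19 (611893) at 536 and 571 TPM and an acidic protein (605116) at 518 and 560.5 TPM. Replicate 2 was the higher for 64 of 74 models at 1 TPM or more, by a median of 0.09 on the log2 scale. Organellar ribosomal proteins, with a median of 87.9 TPM over 39 models, were higher in replicate 2 for 34 of 39. The plastid protein rpS22 (594854) was highest at 766 and 803 TPM. Going by the steps between low values, 1 FPKM stood for 1.09 times as many fragments in replicate 2, and its part in the shift was not tested.

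Other translation lists were nearer to balance. Translation factors had a median of 31.4 TPM over 77 models, and replicate 2 was the higher for 37 of 75. A protein with the MA3 domain of eIF4G (594292) was at 597 and 623 TPM and elongation factor 1-alpha (544243, overlapping), which brings aminoacyl-tRNA to the ribosome, at 573 and 570.2 TPM. An EF2 model, 574619 (overlapping), was at 0.0791 and 0.0362 TPM. The words of this list passed over 636004 (scaffold 2, 186847 to 190203), which is assigned to selenocysteine-specific elongation factors, GTPases that place selenocysteine, and was named after its value was seen. It overlaps no other model and stood at 1854 and 1897 TPM, above every member of the list. With all 12 further models described by an elongation factor or its GTP-binding domain, the list held 0.822% and 0.823% of the total, against 0.569% in either library without them, and its median was 32.5 TPM. Aminoacyl-tRNA synthetases had a median of 24.3 TPM over 47 models, led by alanyl-tRNA synthetase (582534) at 281 and 269 TPM. Ribosome biogenesis, which matures ribosomal RNA, was low, with a median of 10.5 TPM over 70 models and 3 at 100 TPM or more. Its highest member, the methyltransferase 600448, was at 366 and 347 TPM.

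For nitrogen uptake and assimilation the median was 62.8 TPM over 12 models. A nitrite or sulphite reductase-type model (593348) was highest at 524 and 525 TPM and ammonium transporter 588441 stood at 198 and 198 TPM. Nitrite transporter NAR1 (580910), a plastid channel in green algae, was at 89.2 and 97.8 TPM and glutamine synthetase 581084 at 82.6 and 79.9 TPM. Nitrate reductase (590448), the first enzyme of nitrate use, was lowest at 1.05 and 0.861 TPM. The members of this list differed widely in level, with nitrate reductase near 1 TPM. Model 593348 is also described as a ferredoxin sulfite reductase, so its place in nitrogen use is not settled.

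Antioxidant enzymes formed one of the high lists. Superoxide dismutases, catalases and peroxidases held 0.679% and 0.696% of the total over 19 models, with a median of 281 TPM, 14 at 100 TPM or more and none below 1 TPM. Superoxide dismutase models 587211 and 596439, both with the domain of the manganese/iron type, which remove superoxide, were at 1529.9 and 1584 TPM and 859.8 and 895 TPM. The 2-Cys peroxiredoxin 579800 was at 796 and 804 TPM. Thioredoxins and glutaredoxins, small redox carriers, had a median of 45.2 TPM over 66 models, and 573084 (overlapping) of the glutaredoxin type was at 593 and 599 TPM. Glutathione transferases had a median of 26.2 TPM over 18 models, of which 587809 (overlapping) at 909.8 and 918 TPM took 52.4%.

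Among photoreceptors, aureochrome 1 (550823; scaffold 3) was at 1057 and 994 TPM and aureochrome 3 (582424, overlapping) at 1014 and 944 TPM, whereas aureochrome 4 (622551) was at 6.28 and 6.68 TPM. The 4 cryptochrome and photolyase models, of a family that repairs DNA or senses blue light, ranged from 18.7 and 19.3 TPM for 571816 to 1.34 and 0.993 TPM for cryptochrome DASH (622582, overlapping). The 7 models had a median of 11.6 TPM, and 5 of them were lower in replicate 2.

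Other regulators covered the whole range. Myb and SANT domain proteins had a median of 22.1 TPM over 41 models. The Myb family model 636002 was at 1752 and 1679 TPM, and the next 3, 525903, 636086 and 552758, carry a SANT domain but are assigned to zuotin-like chaperones, which in yeast act at the ribosome. Model 525903, of 165 bp, was at 1129.8 and 920.5 TPM, higher in replicate 1. The bZIP proteins other than aureochromes had a median of 44.9 TPM over 7 models, with 592730 at 891 and 867 TPM. Protein kinases, the largest list with 174 models, had a median of 17.2 TPM, 33 models at 100 TPM or more and 30 below 1 TPM. A model assigned to tyrosine-type kinases (595480) was at 1595 and 1619 TPM and the shaggy-like kinase 586057 (overlapping) at 722 and 714 TPM.

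Cyclins and cyclin-dependent kinases, which drive the cell cycle, had a median of 14.9 TPM over 26 models, with 7 at 100 TPM or more and 3 below 1 TPM, and the top 4 took 79.3% of the list. The regulatory subunit of cyclin-dependent kinase (595252, overlapping) was at 1045 and 1082 TPM and the predicted cyclin 592821 at 933 and 927 TPM, whereas the B-type cyclin 603968 was listed at 0 in both libraries. DNA replication proteins had a median of 17.4 TPM over 58 models, with the sliding clamp PCNA (597382) highest at 193 and 194 TPM. Core histones, which package DNA, had a median of 85.7 TPM over 10 models. Histone H3 model 506761 (scaffold 11, 347658 to 347981) was at 1721 and 1833 TPM and took 57.7% of the list. Its divergent neighbour, histone H4 model 590030, was at 48.6 and 49.2 TPM. H2B model 603129 was at 604 and 589 TPM. The libraries are of polyadenylated RNA, so histone transcripts without a poly(A) tail would not be counted.

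Motor proteins of the cytoskeleton were low. Dyneins, kinesins and myosins had a median of 3.22 TPM over 46 models, with none at 100 TPM or more and 15 below 1 TPM. The highest was a myosin (372158) at 93.4 and 101 TPM. Flagellar and intraflagellar transport proteins had a median of 15.4 TPM over 10 models, 4 of them below 1 TPM. Vegetative cells of this genus carry no flagella. Intraflagellar transport protein IFT46 (575801, overlapping) was at 70.8 and 77.3 TPM. Tubulins, actins and FtsZ had a median of 15.1 TPM over 20 models. An actin model of 228 bp (521436, overlapping) was at 466 and 581 TPM, higher in replicate 2. It lies within the actin model 6408 on the same strand, which was listed at 0 in both libraries. FtsZ (584683), of the organelle division machinery, was at 319 and 301 TPM.

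Membrane proteins included one of the most abundant small families. The Mpv17 and PMP22 family, proteins of the peroxisomal or inner mitochondrial membrane in animals and yeast, held 0.889% and 0.868% of the total over 13 models. Model 578851 (scaffold 4, 638969 to 640467) was at 4523 and 4352 TPM and 625233 at 2527 and 2506 TPM, and these plus 577399 and 594019 took 93.6% of the list. The other 9 had means of 283 TPM or less, and the median was 68.3 TPM. ABC transporters had a median of 17.2 TPM over 92 models and the major facilitator superfamily 13.5 TPM over 62, both below all models. The facilitator 413378 (overlapping) was at 1591 and 1553 TPM and took 34.1% of its list.

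By KOG class, a grouping of eukaryotic orthologs, posttranslational modification, protein turnover and chaperones held the largest named share. Its 611 models took 10.9% and 11.0% of the total, with a median of 45.0 TPM and 31.9% at 100 TPM or more. Energy production and conversion followed among the classes of known function, with 3.79% and 3.80% over 255 models and a median of 56.3 TPM. Signal transduction took 2.95% and 2.94%, amino acid transport and metabolism 2.82% and 2.80%, and lipid transport and metabolism 2.74% in either library. In the lipid class the acyl-CoA ligase 603105 alone took 19.5%. Translation took 2.64% and 2.74%, the difference going the way of the ribosomal proteins. The lowest class medians were those of cell motility (6 models, 4.65 TPM), extracellular structures (10 models, 7.74 TPM), the cytoskeleton (81 models, 7.87 TPM) and defense mechanisms (36 models, 7.99 TPM). Replication, recombination and repair (177 models, 16.3 TPM), cell cycle control (165 models, 17.2 TPM) and cell wall biogenesis (56 models, 17.8 TPM) were also below 21.6 TPM. Models without a KOG class, 5309 in number, held 50.8% and 50.7% of the total, with a median of 14.7 TPM.

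**Figure D3:**
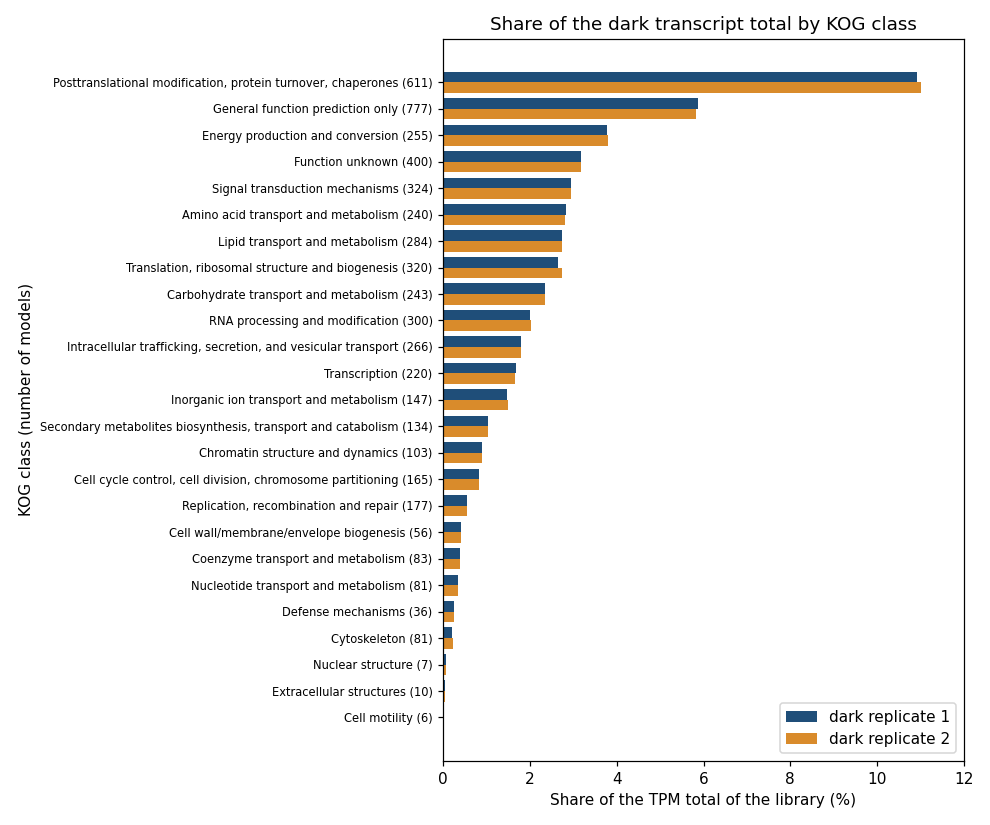
Share of the TPM total in percent (x axis) of each KOG class (y axis, number of models in brackets), with blue bars for dark replicate 1 and orange bars for dark replicate 2. Posttranslational modification stands first at 10.9% and 11.0%, and the bars of a class are nearly equal in length.

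At the other end, 286 models (2.69%) were listed at 0 TPM in both libraries. Replicate 1 listed 394 models at 0 and replicate 2 listed 360, and a model at 0 in only 1 library reached at most 1.94 TPM in the other. A further 71 models had means above 0 but below 0.001 TPM, and all 71 overlap another model. With these included, 531 models were below 0.1 TPM and 1406 below 1 TPM. The files hold no counts, so a 0 can be a failed or dropped estimate and is not a proof of silence. Models at 0 were shorter, with a median span of 1235.5 bp against 1861 bp for all models, and made up 4.67% of undescribed and 1.70% of described models.

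Models at 0 often had a near-equal partner in the table. Of the 121 described models at 0, 48 (39.7%) had a partner with the same description and a span equal within 5 bp, against 62 of 6984 (0.888%) described models above 0. The share was 4.13% from 0 to 0.1 TPM, 3.63% from 0.1 to 1 TPM and 0.407% above 100 TPM. Partners of exactly equal span stood beside 34 of the models at 0. Whether reads that match several copies were dropped in counting was not tested.

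**Figure D4:**
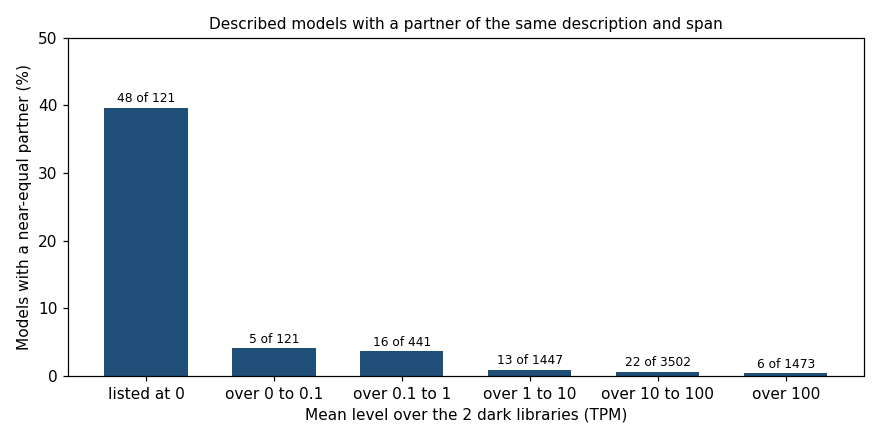
Described models that have a partner of the same description and a span equal within 5 bp, in percent of the described models of each range (y axis), by mean level over the dark libraries in TPM (x axis). The bar for models listed at 0 stands at 39.7%, 48 of 121, and every other range is below 5%.

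The function lists held 21 models at 0 among 1763, or 1.19%, against 2.69% of all models. Some of the models at 0 carry functions that cells generally need. Both 60S ribosomal protein L21 models, 598827 and 606913, were at 0, as were both models of the Sec61 beta subunit of the protein translocation channel and both of the mitochondrial import protein TIM9. All 4 models described as hypothetical protein with PAS fold-4 alone and all 3 folate biopterin transporters were at 0 too. Besides the L21 models, those in the lists were 5 protein kinases, 3 ABC transporters, 3 Rieske models, 2 phosphoglycerate kinases and 1 model each of the actin, proteasome, glutathione transferase, cyclin, ubiquitin ligase and J-domain lists. Of the 21, 8 have a near-equal partner.

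Models at 0 also clustered along the scaffolds. They fell on 77 of 131 scaffolds, and 133 of the 286 stood next to another model at 0, in runs of up to 5 models on scaffold 8 (198189 to 218157). By share, scaffold 12 was near the 2.69% of all models, with 12 of 337 models (3.56%) at 0, whereas scaffold 38 had 13 of 55 (23.6%) and scaffold 47 had 11 of 41 (26.8%). On scaffold 52, 13 of 32 models (40.6%) were at 0, on scaffold 39, 22 of 63 (34.9%), and on the small scaffold 51, 3 of 7 (42.9%). Scaffolds 39 and 52 were low as a whole, holding 0.00556% and 0.00545% of the total on scaffold 52, and 0.0167% in either library on scaffold 39.

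The dark libraries agreed closely. Over 9229 models with a mean of at least 1 TPM, the median absolute log2 ratio on TPM + 1 was 0.074, a difference of 5.27%, and its 95th percentile was 0.33. The median signed ratio of replicate 2 over replicate 1 was 0.0047. Of these models 25 (0.271%) were more than 2-fold apart, 12 higher in replicate 2 and 13 in replicate 1, and 18 of the 25 overlap another model. Across models Pearson's r was 0.997 and Spearman's rho 0.997, as a description over models that share their libraries and are not independent. The spread narrowed with level, from a median absolute log2 ratio of 0.15 at 1 to 3 TPM to 0.048 at 1000 TPM or more. It was also wider for short models, at 0.11 in the shortest 20% by span and 0.060 in the longest 20%.

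**Figure D5:**
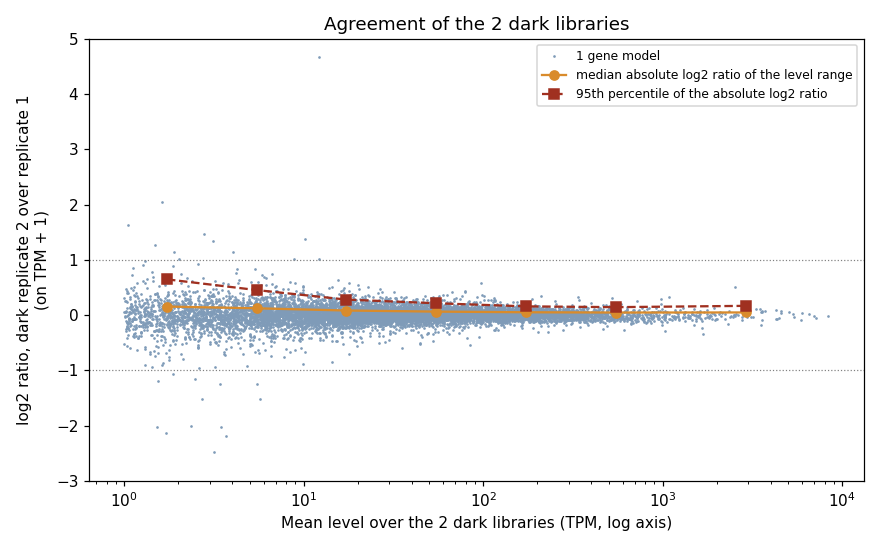
Log2 ratio of dark replicate 2 over dark replicate 1 on TPM + 1 (y axis) against the mean level in TPM (x axis, log scale) for 9229 models, with dotted lines at 2-fold. The median absolute ratio (circles) goes from 0.15 in the lowest range of level to 0.048 in the highest, and the squares give the 95th percentile.

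The models least alike between libraries included short and overlapping ones. Of the 10 models with the largest ratio at a mean of at least 10 TPM, 3 were more than 2-fold apart. Undescribed 638254 (scaffold 7, 315 bp, overlapping) was at 7.97e-05 and 24.4 TPM, so that its whole level lay in replicate 2. A La-type RNA-binding protein (529834, 285 bp) was at 5.19 and 15.1 TPM and undescribed 598311 (overlapping) at 7.71 and 16.7 TPM. A NOT2/NOT3/NOT5 domain model of 150 bp (532427, overlapping), from a family that shortens poly(A) tails, went the other way at 22.4 and 13.4 TPM. Undescribed 9462 (overlapping), the most abundant of the 10, was at 77.8 and 117 TPM.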

How the data were processed

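Polyadenylated RNA was measured in 6 libraries, 2 for each of 3 groups, of which the dark libraries are described. The authors deposited FPKM values, which are scaled to transcript length and library size. Per the file headers the table also holds TPM, which the values show to be FPKM times 1.30 in either dark library. The submitters' processing notes name FastQC, TopHat, Cufflinks, Cuffnorm and Cuffdiff but give neither versions nor the task of each. How reads were aligned, shared between models and assigned to strands is not stated. The files hold no counts, so the depth is unknown and no interval or floor is given. FPKM sums were 767193 and 767747. From the steps between low values, 1 FPKM stood for 1.09 times as many fragments in dark replicate 2 as in replicate 1 (89 of 813 low models gave this ratio).

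Values were present for 10635 of 10641 models. Shares, medians and ratios were computed with Python 3.11.15, pandas 2.3.3 and numpy 2.4.6. Agreement was measured on log2(TPM + 1) over models with a mean of at least 1 TPM. With 1 group there was nothing to test, so no p-value is given. The scripts were tested on simulated data. KOG classes are those of the table, and the 55 function lists are word patterns on its descriptions, narrowed after the descriptions were read; SANT or Myb models were kept out of the J-domain list. The members and lists were chosen with earlier results of these data known. Models named are the 30 most abundant, the 4 highest and the lowest of a list, those at 0 within a list, and the 10 least alike at a mean of 10 TPM or more; other list members named were chosen after their values were seen. Alternatives were each library alone, FPKM, the geometric mean, models that overlap no other, the product names alone, leaving out the 10 most abundant models, other thresholds for 0, other pseudocounts and filters, and median centring.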

Additional observations from a re-analysis of the deposited data

How the results depend on the processing

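No paired analysis was possible because the results come from 1 group and from no test. With each library alone, the share of the 30 most abundant models was 13.2% in either, that of the posttranslational modification class from 10.9% to 11.0%, that of the chaperone lists from 4.46% to 4.51%, and the number of models at 0 from 360 to 394; the ratio between libraries cannot be computed from 1. Counting only models that overlap no other gave 17.3% in place of 13.2% for the top 30 (20 of the 30 kept), 9.91% in place of 11.0% for posttranslational modification, 2.80% in place of 4.49% for the chaperone lists and 185 in place of 286 models at 0. Leaving out the 10 most abundant models, posttranslational modification held 10.5% of the TPM of the rest. Product names alone gave 2.55% for the chaperone lists. With the SANT members of the DnaJ superfamily, a setting chosen after seeing the data, the chaperone lists held 4.79%. A threshold of 0.1 TPM in both libraries gave 458 models in place of 286, and 1 TPM gave 1299. Without models that have a near-equal partner, also chosen after seeing the data, 238 were left at 0. Models more than 2-fold apart numbered 3 at a mean of at least 10 TPM and 62 with a pseudocount of 0.1, in place of 25. The median absolute log2 ratio stayed between 0.063 and 0.079 under the alternatives run. Of the 55 lists, 13 lost and 2 gained more than 1.5-fold without overlapping models. Hsp90 and lipid droplet proteins had no model left. Branched-chain amino acid degradation, which gained, has no overlapping model, so its rise comes from the smaller total. By product name alone, 31 lists lost more than 1.5-fold. Depth is unknown, so how far low levels are limited by counting cannot be given.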

Other observations

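Descriptions of protein domains with at least 5 models, 295 in all, were ranked by share and by median after their values were seen. The AAA-type ATPase core, found in proteases, proteasome caps and many other machines, held the largest share, 1.33% and 1.35% over 53 models. RNA recognition motif proteins, which bind and process transcripts, had a median of 61.1 TPM over 64 models and held 0.641% and 0.642%. After Hsp20, the highest median was that of the SOUL haem-binding proteins, at 384 TPM over 5 models, with 602182 reaching a mean of 1495 TPM. Aldehyde dehydrogenases had a median of 207 TPM over 12 models, none below 1 TPM. At the low end, PAS fold-4 models had a median of 0 TPM over 6 models, 5 of them listed at 0. CD36-type proteins came next with a median of 0.0770 TPM over 11 models, 8 of them below 1 TPM. Sulfotransferase domain models, at rank 6 from the lowest, had a median of 0.761 TPM over 10.

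Levels of neighbouring models that do not overlap were compared on the log2 scale. Spearman's rho was 0.31 over 2678 divergent pairs, 0.28 over 3140 pairs on the same strand and 0.16 over 2437 convergent pairs, as a description over pairs that share libraries and scaffolds. At gaps of at most 200 bp it was 0.40 over 551 divergent and 0.17 over 1042 convergent pairs. The rank correlation of level with span was 0.03 over 10635 models.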
